A study of Mus musculus with 4 samples.

Results

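The Fc gamma receptors, which bind the constant (Fc) part of immunoglobulin G (IgG), were examined with their shared signalling chain and related receptors in microglia of an Alzheimer's disease mouse model. The 8 genes were taken by symbol: Fcgr1, Fcgr3 and Fcgr4 (activating receptors), Fcgr2b (inhibitory receptor), Fcer1g (signalling chain), Fcgrt (neonatal Fc receptor), and Fcrls and Fcrl1 (Fc receptor-like genes). They are 8 of the 49993 genes listed with a count, and all 8 passed the filter on low counts. Bulk RNA-seq had been made from CD11b+ microglia, the brain's resident macrophages, pulled out of whole brains of 10-month-old mice with magnetic beads. Every mouse carried APP/PS1, a transgene pair that causes amyloid to build up. The AD group (n = 2 libraries) was APP/PS1+ asrij+/+, and the AD/KO group (n = 2 libraries) was APP/PS1+ asrij-/-, in which asrij (Ociad1) had been deleted constitutively and therefore not in microglia alone. No library without APP/PS1 was analysed here, and the labels do not say whether a library came from 1 mouse or from several.

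IgG bound to a target such as amyloid can engage Fc gamma receptors on microglia and start uptake, oxidative burst and cytokine release. Activating receptors signal through Fcer1g, whose tail carries an ITAM, a motif that recruits the kinase Syk once Src-family kinases have phosphorylated it. Fcgr2b carries an inhibitory motif (ITIM) that recruits the phosphatase SHIP1 (Inpp5d), so the balance of activating to inhibitory receptors sets the threshold for a response to immune complexes. Fcgrt, paired with B2m, recycles IgG and albumin inside cells. Fcrls is used as a marker of microglia, and Fcrl1 is best known from B cells.

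Fcgr2b, Fcgr4, Fcgr3 and Fcer1g lie together on chromosome 1 (GRCm38.p6), within 273.8 kb. Fcgr2b (gene ID 14130) is at chr1:170960558-170976071, Fcgr4 (246256) at chr1:171018926-171029761, Fcgr3 (14131) at chr1:171051169-171065915 and Fcer1g (14127) at chr1:171229572-171234349. On chromosome 3 lie Fcrls (80891, chr3:87250736-87263765), Fcrl1 (229499, chr3:87376353-87403967) and Fcgr1 (14129, chr3:96282909-96293969). Fcgrt (14132) is at chr7:45092993-45103822. All 8 are protein-coding genes. Short RNA genes that are also listed lie inside 2 of them on the same strand, Mir6546 in Fcgr3 and Gm26110 in Fcgr4, and an antisense gene lies across Fcgr2b (Gm38204) and Fcgrt (Gm45669), so part of their reads cannot be assigned with certainty.

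The sequences of Fcgr2b and Fcgr3 bear on the main ratio below, because the receptors with opposite signalling have nearly the same IgG-binding part. Over 509 aligned coding bases they were 96.5% identical, with 18 mismatches. By contrast, Fcgr4 was 64.7% identical to Fcgr2b over 465 aligned bases and 64.4% identical to Fcgr3 over 455. The stretch below holds their longest identical run, of which the flanking differences are in capitals. It covers coding bases 258 to 426 of Fcgr2b and 243 to 411 of Fcgr3, spans 2 exons, and lies on the minus strand within chr1:170966654-170968101 and chr1:171054147-171057812, introns not shown.
Fcgr2b: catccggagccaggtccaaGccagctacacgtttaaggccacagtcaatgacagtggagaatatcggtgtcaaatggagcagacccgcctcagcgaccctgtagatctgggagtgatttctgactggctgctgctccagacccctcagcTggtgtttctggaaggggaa
Fcgr3: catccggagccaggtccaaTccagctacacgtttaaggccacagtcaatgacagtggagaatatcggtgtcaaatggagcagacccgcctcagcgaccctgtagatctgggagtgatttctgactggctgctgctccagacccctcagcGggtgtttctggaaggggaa
Only 2 of its 169 bases differ, so a short read from its middle has the same letters in both genes. The window of 100 bases with the most differences has 8 of them, again in capitals. It is coding bases 126 to 225 of Fcgr2b (chr1:170968134-170968233, minus strand) and 111 to 210 of Fcgr3 (chr1:171057845-171057944, minus strand), in 1 exon of each.
Fcgr2b: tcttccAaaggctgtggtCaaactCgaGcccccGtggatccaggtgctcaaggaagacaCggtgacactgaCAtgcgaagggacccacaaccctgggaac
Fcgr3: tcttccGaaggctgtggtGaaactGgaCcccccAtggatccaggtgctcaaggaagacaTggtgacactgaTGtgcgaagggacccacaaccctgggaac
Of all 75-base words in the annotated transcripts of Fcgr3, 7.38% also occurred in another gene, which was Fcgr2b in each case. For Fcgr2b the share was 4.52%, with Fcgr3 and with other genes. The other 6 members shared no such word with any gene. How the authors' counting treated reads that match both genes is not stated.

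The libraries held 13102622 to 19810076 counts. Ociad1, the deleted gene, kept 746 and 592 reads in the libraries labelled AD/KO against 691 and 1032 in AD. Scaled to library size (CPM), these were 38.9 and 32.1 in AD/KO against 50.2 and 63.4 in AD. Both AD/KO libraries were thus lower (log2 fold change −0.68, adjusted p = 0.653, edgeR). The labels do not give the deleted part, so the gene count does not check the genotype. All 17 markers on the microglia list were present, but their summed level was lowest in AD/KO replicate 2, at 8024 CPM (reads scaled to library size) against 16253 to 24469 in the other 3 libraries. That library also had the highest summed neuron list (5029 CPM against 659 to 2004) and astrocyte list (12607 CPM against 1992 to 4945). By group, all 12 neuron and all 11 astrocyte genes had positive log2 fold changes (medians 1.47 and 1.41), and 0 were called. In both AD/KO libraries 3 and 10 of them were higher, but the share of all genes higher in both was not computed. Oligodendrocyte markers were summed at 1670 and 2709 CPM in AD and 3953 and 8633 CPM in AD/KO, and 7 of 11 had positive log2 fold changes. The part of these cells in the members' values was not tested. AD replicate 2 stood apart in the neutrophil list, at 5414 CPM against 836 to 1381. In AD replicate 1 the gene Csf3r alone made up 996 of the 1381 CPM. In bulk RNA, fewer cells of a type and less RNA per cell cannot be told apart. Nothing in the labels says that the libraries came from separate animals, so p-values measure the spread between libraries, which may be technical.

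All 8 genes had a negative log2 fold change (AD/KO minus AD), and none passed the test. In the edgeR fit (quasi-likelihood, p-values adjusted by Benjamini-Hochberg over 21439 genes), 0 of 8 members had an adjusted p under 0.05, as did 0% of all genes tested. Over all genes, 1175 had an unadjusted p under 0.05, and DESeq2 called 90. Fcrls and Fcrl1 were the 2 members with an unadjusted p under 0.05, where 2.47% of all genes tested were that low and lower in AD/KO. In 4 members (Fcgr2b, Fcgr4, Fcrls and Fcrl1) the groups did not overlap and AD/KO was the lower, as in 21.7% of all genes tested. No member was higher in both. The median log2 fold change of the 8 was −0.67, and that of all genes tested −0.05. Of the 17 microglia markers, 15 also had negative log2 fold changes, with a median of −0.38, and 1 was lower in both AD/KO libraries. Of the 8, 7 had their lowest level in AD/KO replicate 2, the library with the lowest microglia markers; its part in these differences was not tested.

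**Figure D1:**
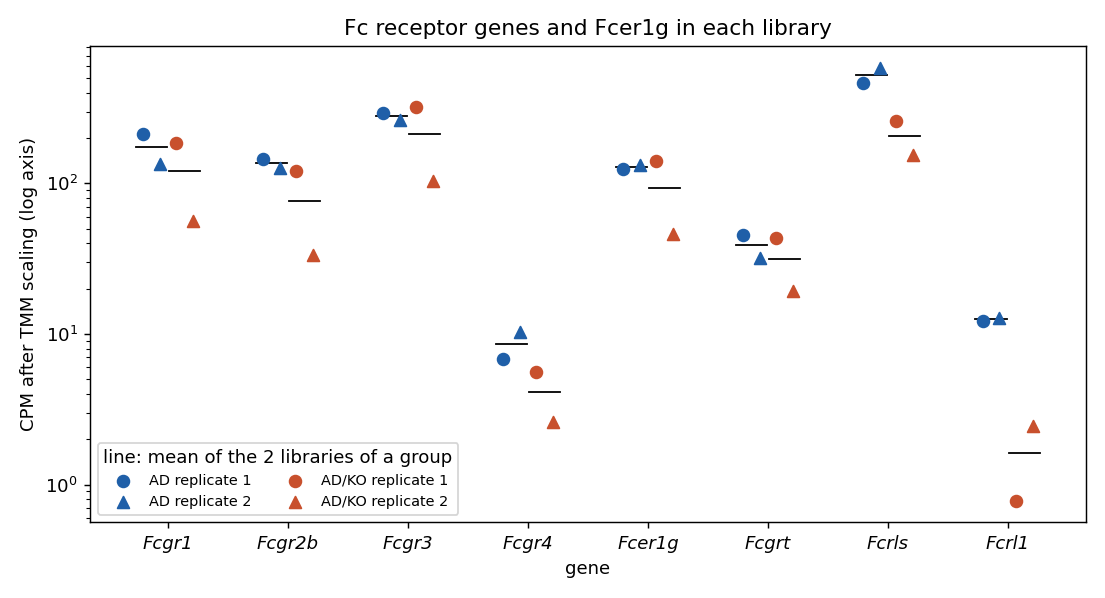
Level of each of the 8 genes in CPM (log axis) in the 2 AD and 2 AD/KO libraries, 1 point per library with a bar at the group mean. Fcgr1, Fcgr3, Fcer1g and Fcgrt overlap between the groups, with AD/KO replicate 1 at the AD level and AD/KO replicate 2 well below. Fcgr2b, Fcgr4, Fcrls and Fcrl1 are lower in both AD/KO libraries.

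Fcgr3, the low-affinity activating receptor, was the most abundant of the classical receptors. It measured 294 and 263 CPM in AD replicates 1 and 2, and 323 and 104 CPM in AD/KO replicates 1 and 2. The groups overlapped, because AD/KO replicate 1 was the highest of the 4 libraries and AD/KO replicate 2 the lowest. The AD mean was 278 ± 22.0 CPM (SD, n = 2) and the AD/KO mean 213 ± 155 CPM (SD, n = 2). The log2 fold change of −0.38 (SE 0.59) was smaller than its error (edgeR, adjusted p = 0.796).

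Fcgr1, the high-affinity activating receptor, followed the same order within AD/KO. Its levels were 213.6 and 133 CPM in AD, and 187 and 55.9 CPM in AD/KO. AD/KO replicate 1 lay between the AD libraries, which themselves differed by more than those of Fcgr3. Its log2 fold change was −0.52 (SE 0.64, edgeR, adjusted p = 0.756).

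Fcgr4, an activating receptor also abundant on neutrophils and monocytes, was present at a low level, 6.82 and 10.3 CPM in AD and 5.58 and 2.60 CPM in AD/KO. These are 94, 167, 107 and 48 reads, so that counting error is larger here than in the other classical receptors. The groups did not overlap, and AD replicate 2 was the highest. Fcgr4 had a log2 fold change of −1.06 (SE 0.56, edgeR, adjusted p = 0.653). It was −0.67 without AD replicate 2, the library with the highest neutrophil markers, and −1.33 without AD replicate 1. Without AD/KO replicate 1 it was −1.66, and without AD/KO replicate 2 it was −0.61. The 14 neutrophil markers tested and the 10 monocyte markers all had negative log2 fold changes. Of them, 2 and 8 were lower in both AD/KO libraries, as were 21.7% of all genes tested. The neutrophil gene Ngp was lowest in AD replicate 1, at 81.9 and 1363 CPM in AD and 134 and 150 CPM in AD/KO. Cxcr2, at 12.9 and 46.8 CPM in AD, was lower in both AD/KO libraries (5.63 and 9.39 CPM). None of the 15 neutrophil and 10 monocyte genes was at 0 in every library. Summed monocyte markers were at 294 and 716 CPM in AD and 118 and 172 CPM in AD/KO. The part of either cell type in the Fcgr4 values was not tested.

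Fcgr2b, the only inhibitory Fc gamma receptor of the mouse, measured 145 and 126 CPM in AD and 120.3 and 33.4 CPM in AD/KO. The groups did not overlap, although AD/KO replicate 1 lay just below the lower AD library. The AD mean was 136 ± 13.6 CPM (SD, n = 2) and the AD/KO mean 76.8 ± 61.5 CPM (SD, n = 2). The log2 fold change was −0.82 (SE 0.63, edgeR, adjusted p = 0.665), and the SD within AD/KO was larger than the difference of the means.

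Fcer1g, the ITAM chain that the activating receptors need to reach the cell surface and to signal, measured 124 and 133 CPM in AD and 140.2 and 46.1 CPM in AD/KO. As with Fcgr3, AD/KO replicate 1 was the highest library and AD/KO replicate 2 the lowest. The log2 fold change was −0.47 (SE 0.56, edgeR, adjusted p = 0.751). As a percentage of the AD mean, AD/KO replicate 1 held 107.5% of Fcgr1, 115.9% of Fcgr3 and 108.9% of Fcer1g, but 88.6% of Fcgr2b and 65.3% of Fcgr4. AD/KO replicate 2 held 24.6% to 37.4% of these 5 genes, with Fcgr2b at the low end.

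Leaving out AD/KO replicate 2 turned the log2 fold changes of Fcgr1 (0.12), Fcgr3 (0.22), Fcer1g (0.13) and Fcgrt (0.19) positive and left Fcgr2b (−0.16), Fcgr4 (−0.61), Fcrls (−1.005) and Fcrl1 (−3.97) negative. Leaving out AD/KO replicate 1 moved Fcgr1 to −1.58, Fcgr3 to −1.37, Fcer1g to −1.43, Fcgrt to −0.95, Fcgr2b to −1.97, Fcgr4 to −1.66 and Fcrls to −1.71, and Fcrl1, in the other direction, to −2.30. In these fits the lone AD/KO library is assumed to vary like the AD libraries.

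The balance of activating to inhibitory receptors was compared within each library, where depth and overall scaling cancel. The mean log2 CPM of Fcgr1, Fcgr3 and Fcgr4 minus that of Fcgr2b was −0.94 and −0.82 in AD and −0.78 and −0.41 in AD/KO. Both AD/KO libraries lay above both AD libraries, by 0.28 on average (1.22-fold). The exact two-sided permutation test over the 4 libraries gave p = 0.333, the smallest it can give with 6 regroupings, and 0.467 after adjustment over the 7 ratios computed. The difference was 0.10 without AD/KO replicate 2 and 0.47 without AD/KO replicate 1. With Fcgr1 or Fcgr3 left out of the activating receptors the groups overlapped (difference 0.24 and 0.18), and with Fcgr4 left out the difference was 0.43.

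Each activating receptor was then set against Fcgr2b alone. Reads of Fcgr3 per read of Fcgr2b were 2.02 and 2.08 in AD and 2.68 and 3.12 in AD/KO. The AD libraries were close to each other and both AD/KO libraries higher, with a log2 difference of 0.49 (1.41-fold; exact permutation p = 0.333). Fcgr3 made up 66.9% (95% Wilson interval 65.7 to 68.1) and 67.6% (66.4 to 68.7) of the Fcgr3 and Fcgr2b reads in AD, and 72.8% (71.9 to 73.8) and 75.7% (74.0 to 77.3) in AD/KO. No interval of an AD library reached one of an AD/KO library; the intervals cover counting error only, not the variation between libraries, and reads carry no molecular identifiers.

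Reads of Fcgr1 per read of Fcgr2b were 1.47 and 1.06 in AD and 1.55 and 1.67 in AD/KO. These were also higher in both AD/KO libraries, though AD replicate 1 lay closer to AD/KO than to AD replicate 2 (log2 difference 0.37, exact permutation p = 0.333). The Fcgr4 ratio had 1 lower and 1 higher library in each group, at 0.0469 and 0.0813 reads per Fcgr2b read in AD and 0.0464 and 0.0780 in AD/KO (log2 difference −0.01, exact permutation p = 0.667). Summed over the 3 activating receptors, 3.54 and 3.22 reads were counted per Fcgr2b read in AD and 4.28 and 4.87 in AD/KO (log2 difference 0.44, exact permutation p = 0.333). Whether reads that match both Fcgr2b and Fcgr3 were counted for either gene is not stated, so the Fcgr3 ratio and its intervals are uncertain to that extent.

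**Figure D2:**
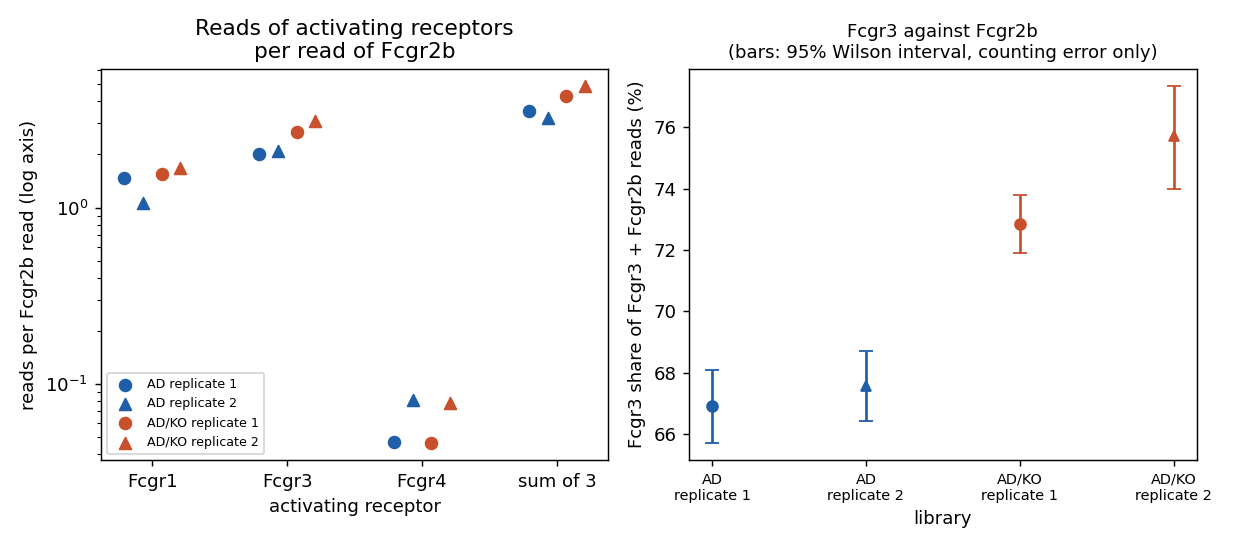
Left: reads of each activating receptor, and of the 3 summed, per read of Fcgr2b (log axis), 1 point per library. Right: Fcgr3 share of Fcgr3 and Fcgr2b reads in percent (axis not from 0) with 95% Wilson intervals of counting error; the share is 66.9% and 67.6% in AD and 72.8% and 75.7% in AD/KO, while Fcgr4 per Fcgr2b read overlaps.

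Fcer1g was set against the receptors it serves. Its log2 CPM minus the mean of the activating receptors was 0.71 and 0.90 in AD and 1.003 and 0.879 in AD/KO, with overlapping groups and a difference of 0.13 (exact permutation p = 0.667). The sign of this difference depended on Fcgr4: it was −0.01 without that gene and −0.02 with summed reads. Against Tyrobp, the other ITAM adaptor of microglia, which serves receptors such as Trem2, Fcer1g was at −0.86 and −0.98 in AD and −0.49 and −0.73 in AD/KO, higher in both (difference 0.31, exact permutation p = 0.333). Tyrobp itself measured 226 and 263 CPM in AD and 196 and 76.5 CPM in AD/KO (log2 fold change −0.84, SE 0.52, edgeR, adjusted p = 0.653). All 5 signalling adaptor genes tested (4 with ITAMs, and Hcst, which has none) had negative log2 fold changes and 0 were called. After Tyrobp the smallest p were those of Cd79a of the B cell receptor (−0.66, SE 0.58) and Hcst, an adaptor that recruits the lipid kinase PI3K (−0.46, SE 0.58).

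Fcgrt, the neonatal Fc receptor, measured 45.6 and 31.8 CPM in AD and 43.7 and 19.3 CPM in AD/KO. AD/KO replicate 1 lay between the AD libraries, and the log2 fold change of −0.30 (SE 0.48, edgeR, adjusted p = 0.805) was the smallest of the 8. AD/KO replicate 2 kept 49.9% of the AD mean, more than for any other member in that library. Endothelial and mural markers, of cells that also use Fcgrt, were summed at 69.5 and 102 CPM in AD and 80.8 and 149.6 CPM in AD/KO, highest in that same library, and their part in its level was not tested. Its partner B2m was at 360.4 and 392 CPM in AD and 307 and 126 CPM in AD/KO (log2 fold change −0.79, SE 0.52, edgeR, adjusted p = 0.653). Alb (albumin, the other cargo of Fcgrt) had 8, 6, 14 and 8 reads. Of the immunoglobulin constant-region genes, Ighg1, Ighg2b, Ighg2c, Ighg3, Ighm, Ighd, Igkc, Iglc1 and Iglc2 were listed at 0 in all 4 libraries. Jchain, which joins immunoglobulin M and A chains, had 28, 184, 25 and 18 reads, highest in AD replicate 2. B cell genes such as Ms4a1 had reads, so these 9 genes are reported only as listed at 0.

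Fcrls had the highest mean CPM of the 8 in AD, though not in AD/KO, where that of Fcgr3 was higher. It measured 461 and 587 CPM in AD and 259 and 155 CPM in AD/KO. Both AD/KO libraries were lower, at 49.5% and 29.5% of the AD mean. The AD mean was 524 ± 89.0 CPM (SD, n = 2), 2.53-fold above the AD/KO mean of 207 ± 74.1 CPM (SD, n = 2). The log2 fold change was −1.34 (SE 0.44), with an unadjusted p of 0.0284 and an adjusted p of 0.653 (edgeR). It ranged from −1.708 to −1.005 as each library was left out in turn. AD replicate 2 was the highest library for Fcrls, whereas AD replicate 1 was higher than it in the summed microglia markers (24192 against 16253 CPM).

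Fcrl1 was the member with the largest difference. It had 169 and 207 reads in AD and 15 and 45 in AD/KO, which is 12.3 and 12.7 CPM against 0.782 and 2.44 CPM. The AD libraries were nearly equal, and AD/KO replicate 1 held 6.26% and AD/KO replicate 2 held 19.5% of their mean. Unlike the other 7 members, Fcrl1 was lowest in AD/KO replicate 1. The log2 fold change was −2.95 (SE 0.66), 7.73-fold lower, with an unadjusted p of 0.00657 and an adjusted p of 0.653 (edgeR). DESeq2, run as an alternative, called Fcrl1 (log2 fold change −2.89, adjusted p = 0.0219) and no other member, where 0.258% of the genes it tested were called lower.

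Beside Fcrl1, B cell markers were summed at 44.3 and 50.5 CPM in AD and 25.9 and 25.0 CPM in AD/KO. Without Cd22, which microglia also express, the sums were 18.1 and 24.2 CPM in AD and 15.2 and 19.4 CPM in AD/KO, and the groups overlapped. Of 7 B cell markers tested, 6 had negative log2 fold changes and 5 were lower in both AD/KO libraries (21.7% of all genes tested). The exception in sign was Ebf1, at 3.05 and 9.83 CPM in AD and 4.59 and 12.7 CPM in AD/KO. Ebf1 is part of the sums without Cd22, and those sums overlapped between the groups only because of it. Ighm and Ighd were at 0 throughout. Ms4a1, a defining B cell gene, had 20 and 28 reads in AD and 5 and 17 in AD/KO. Cd79b, of the B cell receptor, had 90 and 101 reads in AD and 134 and 38 in AD/KO. The border macrophage list was summed at 160.3 and 121 CPM in AD and 80.7 and 68.1 CPM in AD/KO, with 9 of 10 log2 fold changes negative. Their part in the Fcrl1 and Fcrls differences was not tested.

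Fcrls and Fcrl1 are neighbours on chromosome 3, with 112.6 kb from the end of the former to the start of the latter. Of the genes tested, only Cd5l and the long noncoding RNA Gm31940 lie between their starts; they were picked out after their values were seen. Cd5l, a gene known from macrophages, had 13 and 12 reads in AD and 1 and 2 in AD/KO. Gm31940 had 36 and 34 reads in AD and 2 and 3 in AD/KO. It spans chr3:87372949-87377603 and so overlaps the start of Fcrl1; as the use of strand is not stated, reads of the pair cannot be told apart there. All 4 consecutive genes were thus lower in both AD/KO libraries. The next genes tested on either side overlapped between the groups, with log2 fold changes of 0.30 for Gm10705, which starts 43.4 kb before Fcrls, and −0.25 for Etv3, which starts 275 kb after it. Among the 35 other genes tested within 1000 kb of Fcrls, 6 were lower in both, 5 higher in both, and the median log2 fold change was 0.00. Around Fcer1g, the 62 other genes within 1000 kb had a median of −0.27, with 16 lower in both and 11 higher in both. Over all genes tested, 21.7% were lower in both and the median was −0.05. The share of all genes higher in both was not computed.

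**Figure D3:**
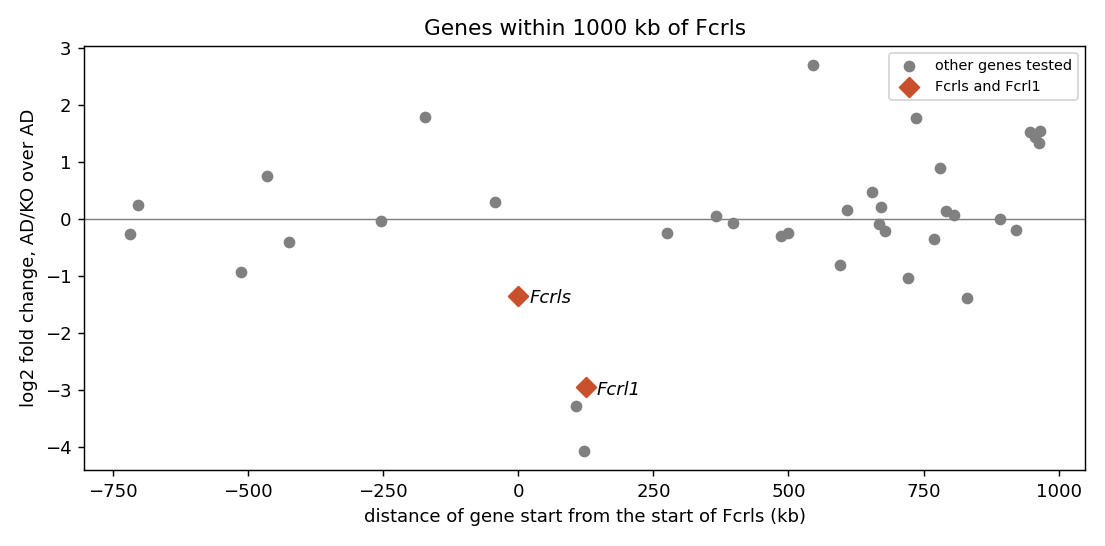
Log2 fold change (AD/KO minus AD) of genes tested within 1000 kb of Fcrls on chromosome 3, by distance of their start from that of Fcrls in kb, with Fcrls and Fcrl1 as diamonds and other genes as grey points. The 2 grey points beside Fcrl1 are Cd5l and Gm31940, whose fitted values rest on 1 to 3 reads in each AD/KO library, and the grey points on either side of the 4, Gm10705 and Etv3, lie near 0.

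Compared per kilobase of exon (RPKM), Fcgr3 had the highest mean level over the 4 libraries, 183 (range 77.2 to 240). Fcer1g followed at 169 (70.1 to 213) and Fcrls at 161 (68.0 to 258), then Fcgr2b at 68.7 (21.6 to 94.0) and Fcgr1 at 56.9 (21.6 to 82.5). Fcgrt was at 20.2 (11.1 to 26.2), Fcgr4 at 5.05 (2.08 to 8.21) and Fcrl1 at 2.72 (0.301 to 4.90). By group, Fcrls was first in AD (mean 231, Fcgr3 207, Fcer1g 196) and behind both in AD/KO (91.1, against 158 for Fcgr3 and 142 for Fcer1g). Ranges of neighbours in the order over all 4 libraries overlapped except those of Fcgrt and Fcgr4. The place of Fcgr2b depends on its length: with all of its 3544 annotated exon bases in place of 1547 its range was 9.42 to 41.0, and its mean fell below that of Fcgr1.

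The members were also set against the mean log2 CPM of the 17 microglia markers, which was 9.97 and 9.42 in AD and 9.97 and 8.22 in AD/KO. On this scale the difference was −0.00 for Fcgr3 and −0.08 for Fcer1g, both with overlapping groups, and −0.13 for Fcgr1, lower in both. Fcgr2b was lower in both AD/KO libraries, at −2.79 and −2.44 in AD and −3.06 and −3.16 in AD/KO (difference −0.50). That size lay at the low end of the range of the markers themselves, from −0.51 for Gpr34 to 0.90 for Sparc. Only Gpr34 was lower than Fcgr2b, and the next marker was Tgfbr1 at −0.31. Fcgr4 differed by −0.51 and Fcrls by −0.78, both with overlapping groups. Fcrls stood at −1.12 in AD replicate 1 and −0.95 in AD/KO replicate 2. Fcrl1 was lower in both (difference −2.46), and Fcgrt differed by 0.21 with overlap. Of the 17 markers, 4 were lower in both on this scale.

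**Figure D4:**
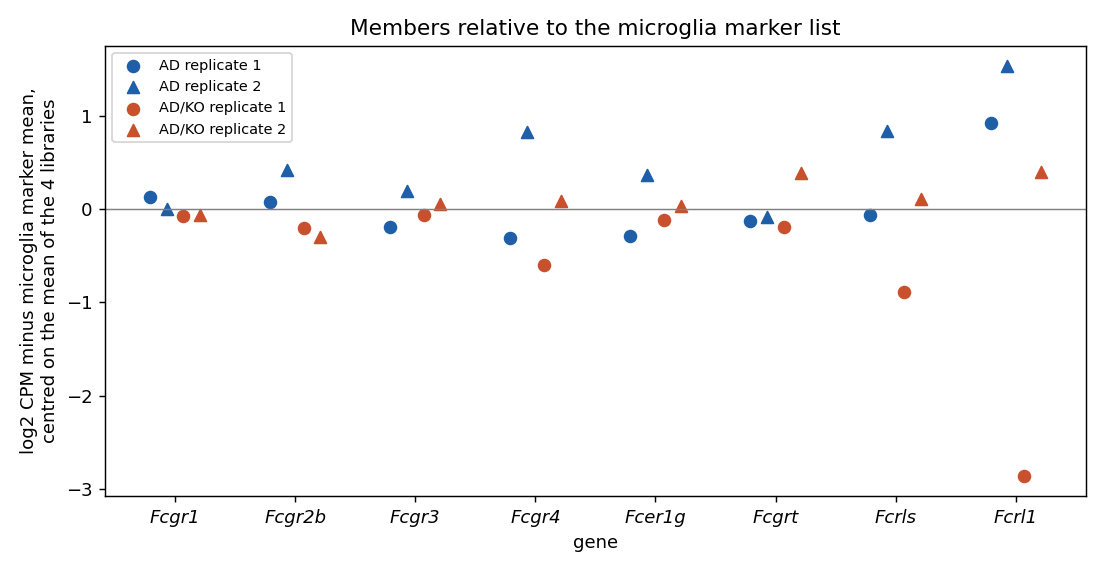
Log2 CPM of each gene minus the mean log2 CPM of 17 microglia markers, centred on its mean over the 4 libraries, 1 point per library (AD and AD/KO, n = 2 each). Fcgr3 and Fcer1g overlap between the groups, Fcgr2b is lower in both AD/KO libraries (difference −0.50), and Fcrl1 has the largest difference (−2.46).

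Downstream of the receptors, 0 of 40 activating signalling genes were called. Of the 40, 8 had positive and 32 negative log2 fold changes, with a median of −0.51 (−0.05 over all genes tested). Both AD/KO libraries were below both AD libraries in 8 of the 40, against 21.7% of all genes tested. They were above both in 4, for which the share over all genes was not computed. Fgr, a Src-family kinase of myeloid cells, had the smallest p, at 34.2 and 60.7 CPM in AD and 13.5 and 9.33 CPM in AD/KO (log2 fold change −2.05, SE 0.42, edgeR, adjusted p = 0.653). Cybb, the catalytic subunit of the phagocyte oxidase, was at 68.3 and 228 CPM in AD and 26.1 and 31.8 CPM in AD/KO (log2 fold change −2.36, SE 0.63). Its highest value was in AD replicate 2, where neutrophil markers were highest; their part in it was not tested. Src went the other way, at 73.4 and 77.8 CPM in AD and 109.9 and 151 CPM in AD/KO (log2 fold change 0.79, SE 0.30). The highest value of Src was in AD/KO replicate 2, where neuron and astrocyte markers were highest, and their part in it was not tested.

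On the inhibitory side, 0 of 18 genes were called. Of the 18, 2 had positive and 16 negative log2 fold changes, with a median of −0.59. The median was −0.51 for the activating list and −0.38 for the 17 microglia markers. In 6 of the 18 both AD/KO libraries were below both AD libraries, against 21.7% of all genes tested. The 3 genes with the smallest p are given here. Lilrb4a, an inhibitory receptor of myeloid cells, was at 72.9 and 82.9 CPM in AD and 20.9 and 14.6 CPM in AD/KO (log2 fold change −2.13, SE 0.32, edgeR, adjusted p = 0.653). Cd22, a sialic acid receptor known from B cells and aged microglia, was at 26.2 and 26.4 CPM in AD and 10.7 and 5.59 CPM in AD/KO (log2 fold change −1.69, SE 0.43). Pirb, which binds major histocompatibility class I, was at 48.6 and 69.2 CPM in AD and 33.99 and 17.9 CPM in AD/KO (log2 fold change −1.18, SE 0.42).

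Of 11 other Fc receptor genes, 5 had enough reads to be tested and 0 were called. Trim21, the Fc receptor of the cytosol, was at 26.4 and 16.7 CPM in AD and 18.2 and 7.54 CPM in AD/KO (log2 fold change −0.74, SE 0.54). Fcrl6 was at 11.2 and 3.57 CPM in AD and 7.14 and 2.66 CPM in AD/KO, overlapping like Trim21 (log2 fold change −0.59). Fcrla, an intracellular relative known from B cells, had 8 and 11 reads in AD and 6 and 3 in AD/KO, lower in both (log2 fold change −1.37, SE 0.75, edgeR, adjusted p = 0.653). Fcer1a, the binding chain of the high-affinity immunoglobulin E receptor of mast cells, which also uses Fcer1g, was listed at 0 in all 4 libraries.

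Genes with the profile most like that of each member across the 4 libraries were found by the root mean square difference of centred log2 CPM, among 13769 genes. The 3 nearest were Parvg, Irf5 and BC035044 for Fcgr1 and Arl11, Gpr34 and Cd68 for Fcgr2b. They were Tnfaip8l2, Gm52945 and Serpinf1 for Fcgr3, and Ceacam1, Tspo and Rac2 for Fcgr4. Rinl, Cyba and C1rl were nearest to Fcer1g, and Asap3, Pip4p1 and Gm51701 to Fcgrt. Those of Fcgr2b include a microglia marker (Gpr34, 0.041) and a lysosomal glycoprotein (Cd68, 0.054), and Cyba (0.055), near Fcer1g, encodes the partner of Cybb. Fcrls was nearest to Treml2 (0.033), Bcl3 (0.053) and Tmem71 (0.082). Fcrl1 had no gene as near by this distance: its closest were Baiap2l2 (0.160), Spp1 (0.342) and Klra2 (0.475). The distance is not scaled to a gene's spread, and Pearson correlations of these genes with Fcrl1 over the 4 libraries were 0.996, 0.993 and 0.994. Genes with a mean under 5 CPM, such as Gm31940 and Cd5l, were not searched.

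**Figure D5:**
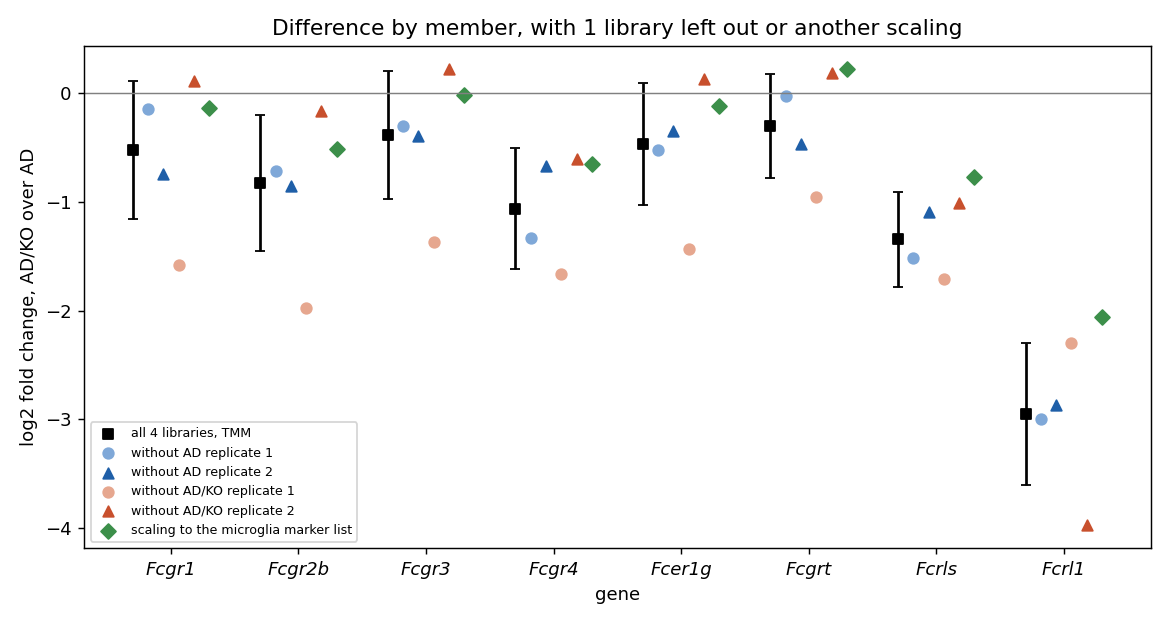
Log2 fold change (AD/KO minus AD) of each member in the edgeR fit with all 4 libraries (squares, bars ± 1 SE), with each library left out in turn, and scaled to the microglia markers. Fcgr2b, Fcgr4, Fcrls and Fcrl1 stay below 0 in all 6 of these settings, whereas Fcgr1, Fcgr3, Fcer1g and Fcgrt lie above 0 without AD/KO replicate 2, and Fcgrt also when scaled to the microglia markers.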

How the data were processed

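The authors deposited 1 table of raw read counts per gene symbol for each of the 4 libraries (stranded, ribosomal RNA depleted, per the labels' protocols). The submitters' processing notes name mm10, FastQC, HISAT2, SAMtools, featureCounts, Subread and DESeq2 1.30.0. Use of strand, reads matching several places and annotation release are not given in the sources used here. Each table had 11 broken lines, which left Neb, Bag6, Mycbp2 and Huwe1 without a count.

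Counts were tested with edgeR 4.0.16 in R 4.3.3: filterByExpr (minimum count 10, total 15), scaling by the trimmed mean of M values, quasi-likelihood test of AD/KO against AD, Benjamini-Hochberg adjustment, threshold 0.05. CPM use the same scaling. A standard error is the log2 fold change divided by the square root of F. The procedure was tested on simulated data. Alternatives were DESeq2 1.42.0 as the test, its size factors, other filters and dispersion methods, scaling to the microglia markers, a replicate block, other ratio definitions and leaving out each library. Coordinates are RefSeq GRCm38.p6 and sequences GENCODE M21 (GRCm38), aligned with BLAST 2.17.0. RPKM use exons of RefSeq-paired transcripts within the RefSeq gene limits.

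The members and lists were chosen with earlier results of these data known. The genes named are the 8 members, the 3 of each list with the smallest p (among pathway lists) and the nearest profiles with a mean of at least 5 CPM. Other genes were named after their values were seen.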

Additional observations from a re-analysis of the deposited data

How the results depend on the processing

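Of 143 recomputed values, 124 kept their direction and their side of the threshold or moved less than the spread. Genes past the threshold numbered 0 in edgeR and 90 in DESeq2. With the replicate block, 4320 were called (1422 lower), and Fcrl1 (−3.06, adjusted p = 0.00609) and Fcrls (−1.38, adjusted p = 0.0248) were among them. The labels do not say that replicate numbers pair the libraries, and deviations of same-numbered libraries correlated at 0.68 over genes. With 2 libraries a group, renumbering those of a group would only turn the sign of that correlation, so it cannot show pairing. With 1 library left out, calls ranged from 0 to 654 (50 without AD replicate 1, 654 without AD replicate 2). DESeq2 gave −2.89 for Fcrl1.

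Leaving out 1 library gave ranges of −1.58 to 0.12 for Fcgr1, −1.37 to 0.22 for Fcgr3, −1.43 to 0.13 for Fcer1g, −0.95 to 0.19 for Fcgrt, −1.97 to −0.16 for Fcgr2b, −1.66 to −0.61 for Fcgr4 and −3.97 to −2.30 for Fcrl1. The positive values came without AD/KO replicate 2. The list medians ranged from −1.26 to −0.081 (activating) and from −1.51 to −0.035 (inhibitory). Scaling to the microglia markers moved the median of all genes to 0.68, Fcgrt to 0.23, Fcrls to −0.77, Fcrl1 to −2.05 and the activating list to −0.0049. The activating to inhibitory ratio differed by 0.18 to 0.45 under other definitions and by 0.10 to 0.47 with 1 library left out. The Fcer1g to activating ratio turned to −0.018 with summed reads, −0.033 per kilobase and −0.015 without Fcgr4. The cause of these changes was not tested.

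With 2 libraries a group, a single-value permutation test cannot pass 0.05. Fcgr4 and Fcrl1 had the fewest reads, at most 207 in a library, and standard errors of 0.56 and 0.66, against 0.44 to 0.64 for the other 6 members.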
